A study of Mus musculus with 15 samples.

Results

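The genes described here are 38 genes of mature, myelinating oligodendrocytes, chosen by name and found by symbol in the count table. All 38 were among its 27179 genes, and all 38 were among the 17151 genes with enough counts to test. Mature oligodendrocytes wrap axons in myelin, a stack of lipid-rich membrane held together by a small set of abundant proteins. The factors Sox10 and Myrf switch on the genes for these proteins as the cell matures, and enzymes of the same cell make the galactolipids of the sheath. Myelin is denser in the fibre tracts of the hindbrain than in the grey matter of the cortex or the olfactory bulb. By role, the genes comprise 10 myelin membrane proteins, 7 cytoplasmic and cytoskeletal proteins, 9 enzymes and metal carriers, 6 receptors, channels and junction proteins, 3 transcription factors and 3 less studied genes.

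The study compared mice homozygous for a transgene that makes human α-synuclein from the PLP promoter (TG) with non-transgenic C57Bl/6 mice (WT). The PLP promoter is active in oligodendrocytes, so the genes described here belong to the cells that carry the transgene product. RNA from brain of mice aged 12 months was read in 7 TG libraries, 4 from females and 3 from males, and in 8 WT libraries, 4 from females and 4 from males. The labels give each library as bulk tissue of a brain hemisphere, do not say which part was taken, and do not say whether the TG mice come from 1 founder line. The labels do not state that each library is 1 animal, and p-values then cover only the spread among libraries. In the titles, all libraries of a genotype-by-sex group share 1 leading number, and the number after it tells them apart. What the leading number stands for is not said. If it stands for 1 source per group, neither the p-values nor the counts of non-overlapping libraries cover the spread among animals. The human transgene itself was not analysed here.

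Library totals ran from 15170772 to 35850998 counts, and the limit that 3 counts allow lay between 0.0837 and 0.198 CPM (counts scaled to library size) on the unscaled totals, which covers counting error only. All CPM values below use totals scaled with TMM. The libraries did not hold the same brain regions. By clustering on marker genes of 5 brain regions, none of them among the 38 genes, the 15 libraries fell into 4 classes. Hindbrain markers marked TG females 1 and 4, WT male 3 and WT female 3, where the hindbrain patterning gene Hoxa5 had 121 and 87.6 CPM in TG and 69.3 and 112 CPM in WT. TG female 3 alone carried cerebellum markers, with 701 CPM of the granule cell receptor subunit gene Gabra6. The cortex-marker class held TG males 3 and 4, WT males 2 and 4 and WT female 2, and the olfactory-marker class held TG female 2, TG male 1, WT male 1 and WT females 1 and 4. TG male 3 and WT male 2 were placed with the cortex-marker libraries but carried the olfactory neuron gene Omp, at 91.5 CPM in TG male 3 and 50.2 CPM in WT male 2. The 10 excitatory cortex genes summed to 902 CPM in TG male 3 and 1444 CPM in WT male 2. The other cortex-marker libraries had 2783 to 2984 CPM and the olfactory-marker libraries 881 to 992 CPM. By these genes TG male 3 was like the olfactory-marker libraries, so the class name does not describe it. When an olfactory list was added to the clustering, an alternative chosen after seeing the data, these 2 libraries moved to the olfactory-marker class, which left 1 TG and 2 WT cortex-marker libraries. Genotype tests are therefore given under both sets of classes. The classes were formed from these same libraries, so differences between classes are described without a test.

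The genes stood highest in the hindbrain-marker libraries, with Enpp2 as the 1 exception. Together they took 2.11 and 1.85% of all counts in the TG and 2.14 and 2.31% in the WT hindbrain-marker libraries. Their share was 0.717% in the cerebellum-marker TG library. It was 0.274 and 0.286% in TG and 0.235, 0.467 and 0.563% in WT cortex-marker libraries, and 0.418 and 0.318% in TG and 0.435, 0.405 and 0.310% in WT olfactory-marker libraries. Every hindbrain-marker library was thus far above every other library, and the cortex-marker and olfactory-marker shares overlapped. For 37 of the 38 genes, each of the 4 hindbrain-marker libraries lay above all 11 others, a pattern that 12.5% of the genes tested showed. In bulk tissue, fewer oligodendrocytes and less RNA per oligodendrocyte cannot be told apart. Other cell classes moved with this difference. The summed level of 5 neurofilament genes, which mark large axons, was 4415 and 4344 CPM in TG and 4525 and 4906 CPM in WT hindbrain-marker libraries, against 425 to 1632 CPM in the other 11, and none of the 5 genes was at 0 in all libraries. The summed level of 10 astrocyte genes was 8741 and 7743 CPM in TG and 7660.3 and 9297 CPM in WT hindbrain-marker libraries, against 4286 to 6653 CPM in the other 11. The part of these differences in the level of the 38 genes was not tested.

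**Figure D1:**
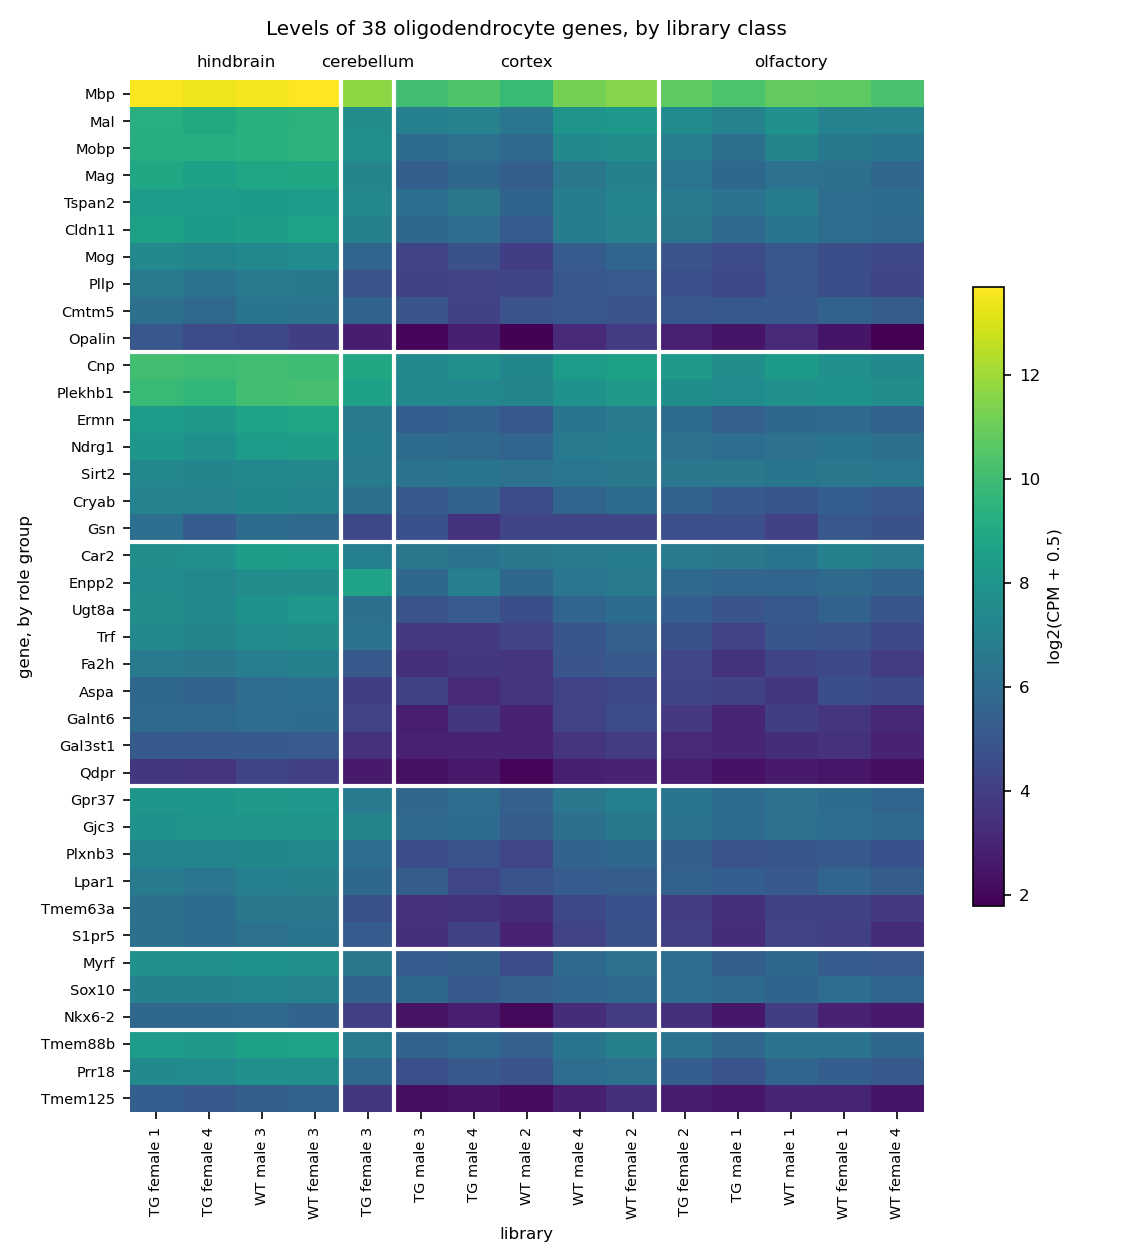
Level of each of the 38 genes (rows, by role group) in each of the 15 libraries (columns, by library class, TG left of WT within a class), as log2(CPM + 0.5), from dark (low) to yellow (high). The 4 hindbrain-marker columns are the highest in every row but that of Enpp2, where the cerebellum-marker TG library is higher.

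Because the 38 genes moved together over the library classes, the stretch just before their start sites was read for words that their known activators bind. RefSeq promoter sequence on GRCm38.p6 was matched by symbol for 29 of the 38 genes, and the 250 bases before each start were searched on both strands. The words were the SOX words ACAAAG and ACAATG, the MYRF word CTGGCAC and the TATA word TATAAA. At least 1 of the SOX words lay in the windows of 15 of the 29 genes (51.7%), against 28.2% of 27025 genes with a window. The genes have 1 window per listed start, 42 for the 29 genes and 32851 for all, so the share is also given by window, 45.2% of the 42 windows and 25.2% of all. CTGGCAC lay in those of 4 genes (13.8%, against 4.83% of all genes), and TATAAA in those of 1 gene (3.45%, against 14.3%). A word is a match of letters and not a measured site. The 4 windows below belong to genes that recur in the results, Cnp with a steady ratio to the other genes, Mag and Mobp with a large difference between classes, and Sirt2 with the smallest. They run 5′ to 3′ along the gene's strand, and capitals mark SOX and MYRF words on either strand. They are Cnp at chr11:100574689-100574938 (plus strand), Mag at chr7:30914923-30915172 (minus strand), Mobp at chr9:120149492-120149741 (plus strand) and Sirt2 at chr7:28766502-28766751 (plus strand).
Cnp: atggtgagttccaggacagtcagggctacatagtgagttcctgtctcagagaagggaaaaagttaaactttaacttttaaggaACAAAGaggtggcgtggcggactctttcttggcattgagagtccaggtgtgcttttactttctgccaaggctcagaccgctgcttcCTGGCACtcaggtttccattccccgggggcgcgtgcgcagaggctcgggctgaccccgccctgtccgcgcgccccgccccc
Mag: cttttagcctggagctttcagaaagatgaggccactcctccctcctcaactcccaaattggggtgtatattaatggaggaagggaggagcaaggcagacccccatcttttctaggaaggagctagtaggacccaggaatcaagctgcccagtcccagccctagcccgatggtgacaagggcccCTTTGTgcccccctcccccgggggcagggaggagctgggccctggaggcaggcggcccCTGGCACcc
Mobp: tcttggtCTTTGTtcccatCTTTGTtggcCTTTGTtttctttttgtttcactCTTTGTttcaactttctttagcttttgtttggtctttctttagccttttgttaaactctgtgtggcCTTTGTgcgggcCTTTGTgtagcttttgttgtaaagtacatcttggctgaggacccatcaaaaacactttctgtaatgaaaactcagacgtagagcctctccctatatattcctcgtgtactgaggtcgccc
Sirt2: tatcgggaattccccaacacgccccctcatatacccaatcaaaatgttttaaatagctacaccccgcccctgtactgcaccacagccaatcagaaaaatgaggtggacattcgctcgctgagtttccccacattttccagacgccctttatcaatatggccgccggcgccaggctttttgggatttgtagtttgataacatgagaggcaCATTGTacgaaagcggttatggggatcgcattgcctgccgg
The window shown for Mag is 1 of its 3, of which 2 overlap and hold the same words and 1 holds none. The Cnp window and this Mag window each held 1 SOX word and 1 MYRF word, the Mobp window held 6 SOX words, and the Sirt2 window held 1 SOX word. The windows shown thus all held a SOX word, whereas only 15 of the 29 genes had one. Mal, Mog, Ugt8a and Gpr37 were among the genes with neither a SOX nor a MYRF word.

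Among the myelin membrane proteins, Mbp, whose product holds the cytoplasmic faces of compact myelin together, had the highest level per length and the largest difference between classes. Mbp lies at chr18:82475091-82585637 in RefSeq on GRCm38.p6, the build of all positions here. It had 12037 and 10598 CPM in TG and 11960.0 and 13230.5 CPM in WT hindbrain-marker libraries, 3258 CPM in the cerebellum-marker TG library, 1068 and 1386 CPM in TG and 937, 2341 and 2918 CPM in WT cortex-marker libraries, and 1705 and 1295 CPM in TG and 1842, 1717 and 1253 CPM in WT olfactory-marker libraries. No other library came near the hindbrain-marker ones, and the cortex-marker and olfactory-marker libraries overlapped. It averaged 11956 ± 1076 CPM in the hindbrain-marker libraries (SD, n = 4) and 1562 ± 269 CPM in the olfactory-marker libraries (SD, n = 5). This was 7.65-fold higher in the hindbrain-marker libraries, a difference of 2.95 on the log2(CPM + 0.5) scale. Mag, the adhesion protein of the layer next to the axon, Mog, of the outermost layer, and Mobp, a small basic protein of compact myelin, were 6.50-, 6.34- and 6.11-fold higher. Mag had 466 and 392 CPM in TG and 454 and 477 CPM in WT hindbrain-marker libraries, against 41.6 to 129 CPM over the 10 cortex-marker and olfactory-marker libraries. Mal, a MARVEL-domain protein of myelin, had 605 and 528 CPM in TG and 651 and 705 CPM in WT hindbrain-marker libraries, 205 CPM in the cerebellum-marker TG library, 124 and 135 CPM in TG and 89.0, 249 and 279 CPM in WT cortex-marker libraries, and 184 and 135 CPM in TG and 225, 135 and 136 CPM in WT olfactory-marker libraries. Its 3.82-fold difference was smaller than that of Mbp, and the same was true of the claudin gene Cldn11 (5.01-fold), the plasmolipin gene Pllp (3.98-fold), the glycoprotein gene Opalin (3.85-fold) and the tetraspanin gene Tspan2 (3.77-fold). Cmtm5, another MARVEL-domain gene of oligodendrocytes, differed least in the group at 2.03-fold. Cmtm5 had 71.8 and 59.7 CPM in TG and 85.0 and 81.9 CPM in WT hindbrain-marker libraries, 47.9 CPM in the cerebellum-marker TG library, 30.2 and 16.5 CPM in TG and 28.3, 31.9 and 28.5 CPM in WT cortex-marker libraries, and 32.2 and 32.9 CPM in TG and 35.7, 44.1 and 38.8 CPM in WT olfactory-marker libraries. Over the 10 genes the median difference was 2.16 on the log2 scale.

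The cytoplasmic and cytoskeletal genes spanned the widest range of differences on the log2 scale. Ermn, which encodes the actin-binding protein ermin, was 7.01-fold higher in the hindbrain-marker than in the olfactory-marker libraries, at 328 and 296 CPM in TG and 413 and 449 CPM in WT hindbrain-marker libraries and 63.1 and 43.2 CPM in TG and 56.2, 57.5 and 44.9 CPM in WT olfactory-marker libraries. Cnp, the cyclic nucleotide phosphodiesterase of non-compact myelin, had 1092 and 981 CPM in TG and 1047 and 1033 CPM in WT hindbrain-marker libraries, 478 CPM in the cerebellum-marker TG library, 180.5 and 217 CPM in TG and 154, 323 and 373 CPM in WT cortex-marker libraries, and 297 and 206 CPM in TG and 314, 227 and 179.8 CPM in WT olfactory-marker libraries. Its 4.24-fold difference lay near the middle of the 38. Plekhb1, a pleckstrin-homology-domain gene, was 4.67-fold higher, with 926 and 826 CPM in TG and 1079.6 and 1151 CPM in WT hindbrain-marker libraries and 149 to 297 CPM in the 10 cortex-marker and olfactory-marker libraries. The small heat shock gene Cryab was 3.83-fold and Ndrg1, a gene that Schwann cells need, 3.74-fold higher. Sirt2, an NAD-dependent deacetylase of myelin, had the smallest difference of all 38 genes at 1.76-fold. It had 155 and 146 CPM in TG and 162 and 159.6 CPM in WT hindbrain-marker libraries, 107 CPM in the cerebellum-marker TG library, 81.6 and 84.0 CPM in TG and 76.6, 89.5 and 94.0 CPM in WT cortex-marker libraries, and 90.3 and 89.9 CPM in TG and 84.9, 90.6 and 87.4 CPM in WT olfactory-marker libraries. Even so, its lowest hindbrain-marker library was above all 11 others, and it averaged 156 ± 6.83 CPM in the hindbrain-marker (SD, n = 4) and 88.6 ± 2.44 CPM in the olfactory-marker libraries (SD, n = 5). Gsn, the actin-severing protein gelsolin, was 2.27-fold higher and was uneven within the hindbrain-marker libraries, at 69.6 and 38.5 CPM in TG and 63.4 and 58.3 CPM in WT. TG female 4 was the low one.

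Of the enzymes and metal carriers, the iron carrier gene Trf differed most, at 7.25-fold. Trf had 179 and 149 CPM in TG and 186 and 206 CPM in WT hindbrain-marker libraries, 83.8 CPM in the cerebellum-marker TG library, 13.01 and 13.5 CPM in TG and 17.7, 30.9 and 43.1 CPM in WT cortex-marker libraries, and 26.3 and 17.9 CPM in TG and 31.2, 28.1 and 20.8 CPM in WT olfactory-marker libraries. The genes for galactolipid synthesis were also strongly unequal. The fatty acid 2-hydroxylase Fa2h was 6.41-fold and the galactosylceramide synthase Ugt8a 6.28-fold higher in the hindbrain-marker than in the olfactory-marker libraries, while Gal3st1, which adds the sulfate of sulfatide, was 3.97-fold higher. Galnt6, which starts O-glycosylation, was 5.41-fold higher, and Aspa, which splits N-acetylaspartate, 3.12-fold. Car2, a cytosolic carbonic anhydrase, was 2.7-fold and Qdpr, a reductase that regenerates tetrahydrobiopterin, 2.82-fold higher. Car2, at chr3:14886269-14900770, had 203 and 227 CPM in TG and 351 and 325 CPM in WT hindbrain-marker libraries, 121 CPM in the cerebellum-marker TG library, 93.4 and 83.7 CPM in TG and 95.2, 99.1 and 111 CPM in WT cortex-marker libraries, and 99.4 and 92.6 CPM in TG and 85.6, 128 and 106 CPM in WT olfactory-marker libraries. Outside the hindbrain-marker libraries, Car2 varied little compared with Mbp. Enpp2, the autotaxin that makes lysophosphatidic acid, had 183 and 159 CPM in TG and 201 and 206 CPM in WT hindbrain-marker libraries, 408 CPM in the cerebellum-marker TG library, 53.5 and 117 CPM in TG and 54.3, 86.8 and 104 CPM in WT cortex-marker libraries, and 57.6 and 50.4 CPM in TG and 50.7, 60.4 and 48.2 CPM in WT olfactory-marker libraries. It was the 1 gene whose highest library was not a hindbrain-marker one. The choroid plexus also makes Enpp2, and its defining gene Ttr had 624 CPM in that cerebellum-marker TG library, against 0.109 to 3.53 CPM in the other 14. The part of choroid plexus in that Enpp2 value was not tested.

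The receptors, channels and junction proteins differed by 2.65- to 5.49-fold. The stretch-activated channel Tmem63a (5.49-fold) and the sphingosine-1-phosphate receptor S1pr5 (5.35-fold) differed most, and the lysophosphatidic acid receptor Lpar1 (2.65-fold) least. Gpr37, an orphan receptor of oligodendrocytes, had 277 and 276 CPM in TG and 299 and 281 CPM in WT hindbrain-marker libraries, 104 CPM in the cerebellum-marker TG library, 52.5 and 66.0 CPM in TG and 43.2, 89.7 and 122 CPM in WT cortex-marker libraries, and 86.1 and 61.5 CPM in TG and 76.7, 62.8 and 50.6 CPM in WT olfactory-marker libraries. The connexin Gjc3 had 235 and 249.6 CPM in TG and 256 and 250.5 CPM in WT hindbrain-marker libraries and 146 CPM in the cerebellum-marker TG library, which was above the 38.6 to 96.1 CPM of the 10 cortex-marker and olfactory-marker libraries. The plexin Plxnb3 was 4.56-fold higher.

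The 3 transcription factors did not move as 1. Sox10, which marks the whole oligodendrocyte lineage, precursors included, was 2.27-fold higher in the hindbrain-marker than in the olfactory-marker libraries, Myrf 4.81-fold and the homeodomain factor Nkx6-2 6.05-fold. Sox10, at chr15:79154913-79164490, had 126 and 129 CPM in TG and 139 and 136 CPM in WT hindbrain-marker libraries, 47.0 CPM in the cerebellum-marker TG library, 54.9 and 35.9 CPM in TG and 43.5, 50.7 and 58.7 CPM in WT cortex-marker libraries, and 65.3 and 60.6 CPM in TG and 49.4, 66.6 and 50.4 CPM in WT olfactory-marker libraries. The cerebellum-marker library lay inside the range of the cortex-marker and olfactory-marker ones for Sox10. Myrf had 227 and 224 CPM in TG and 231 and 226 CPM in WT hindbrain-marker libraries, 92.3 CPM in the cerebellum-marker TG library, 37.4 and 41.3 CPM in TG and 23.4, 57.5 and 74.3 CPM in WT cortex-marker libraries, and 66.3 and 41.2 CPM in TG and 53.4, 38.4 and 36.9 CPM in WT olfactory-marker libraries. For Myrf the cerebellum-marker library was above all 10 of them. Myrf averaged 227 ± 2.74 CPM in the hindbrain-marker (SD, n = 4) and 47.2 ± 12.5 CPM in the olfactory-marker libraries (SD, n = 5). The less studied genes Tmem88b, Prr18 and Tmem125 were 4.90-, 5.15- and 6.36-fold higher in the hindbrain-marker libraries, with Tmem88b at 333 and 292 CPM in TG and 372 and 401 CPM in WT, and Prr18 at 176 and 185 CPM in TG and 222 and 221 CPM in WT.

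**Figure D2:**
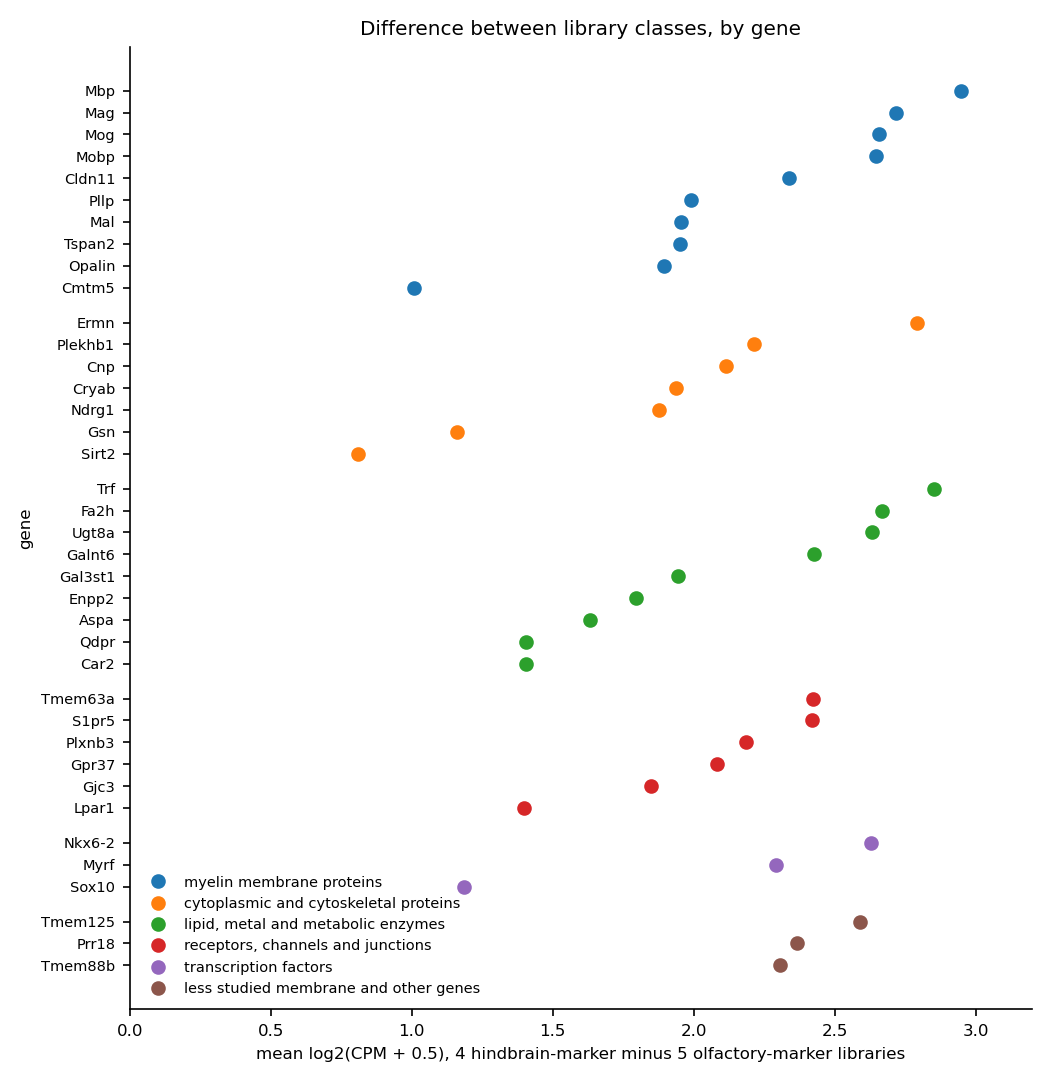
Difference of the mean log2(CPM + 0.5) of the 4 hindbrain-marker minus the 5 olfactory-marker libraries (horizontal axis), with 1 point per gene, grouped and coloured by role. All 38 points lie above 0, from 0.81 for Sirt2 to 2.95 for Mbp.

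Levels of different genes were compared per kilobase of exon sequence. In the hindbrain-marker libraries, the mean ran from 1412 CPM per kb for Mbp through 285 for Cnp, 268 for Plekhb1, 224 for Mal and 192 for Cldn11 to 7.68 for Opalin. Mbp, Cnp, Plekhb1 and Mal held the 4 highest places in the olfactory-marker libraries too, at 184, 67.2, 57.4 and 58.6 CPM per kb, and Opalin was last in both. Plekhb1 and Mal changed places, and with means this close their order is within the spread of the libraries. Other genes changed places by more. Sox10 was in place 22 of 38 in the hindbrain-marker and 10 in the olfactory-marker libraries, Sirt2 in 25 and 12, and Cmtm5 in 14 and 7. Ermn went the other way, in place 8 in the hindbrain-marker and 17 in the olfactory-marker libraries, as did Trf in 17 and 26 and Mag in 7 and 13.

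The ratios of the genes to each other therefore differed between the library classes. Each gene's ratio was taken as its log2(CPM + 0.5) minus the mean of all 38 genes in the same library. The ratio was steadiest over the 15 libraries for Plxnb3, Cnp and Gpr37 (SD 0.13 each on the log2 scale) and least steady for Enpp2 (SD 0.69), Sirt2 (SD 0.63) and Gsn (SD 0.61). In 9 genes, Mbp, Mobp, Mog, Mag, Ermn, Ugt8a, Fa2h, Trf and Tmem125, the ratio was higher in all 4 hindbrain-marker libraries than in all 10 cortex-marker and olfactory-marker ones, which 0.507% of the genes tested showed. For Mbp the log2 ratio was 6.01 to 6.14 in the hindbrain-marker libraries and 5.08 to 5.51 in the 10. In 4 genes, Sirt2, Sox10, Qdpr and Enpp2, it was lower in all 4, which 91.0% of the genes tested showed. The mean of the 38 was itself higher in the hindbrain-marker libraries, which shifts every other gene's ratio downward. Both shares of all genes follow from that shift and are no background for the 38. For Sirt2 the log2 ratio was -0.23 to -0.06 in the hindbrain-marker libraries and 0.56 to 1.498 in the 10. For Sox10 it was -0.46 to -0.24 in the hindbrain-marker libraries and -0.12 to 0.81 in the 10. The first set held 4 proteins of the sheath and 2 enzymes of its lipids, beside Ermn, Trf and Tmem125. The second held the lineage factor, the deacetylase and 2 other enzymes. The ratios did not follow role throughout. The mean ratio, hindbrain-marker minus the 10, was lower for the membrane genes Mal (-0.15), Pllp (-0.10), Cmtm5 (-0.87), Opalin (-0.30) and Tspan2 (-0.20), and higher for Cldn11 (0.20). It was higher for the transcription factors Myrf (0.22) and Nkx6-2 (0.63).

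Direct ratios of CPM between some of these genes also differed by class. Mbp per Sox10 was 95.4 and 82.1 in TG and 85.8 and 97.3 in WT hindbrain-marker libraries, 69.3 in the cerebellum-marker TG library, 19.5 and 38.6 in TG and 21.5, 46.2 and 49.7 in WT cortex-marker libraries, and 26.1 and 21.4 in TG and 37.3, 25.8 and 24.9 in WT olfactory-marker libraries. The lowest cortex-marker values were those of TG male 3 and WT male 2, the 2 with olfactory markers, so that all 7 libraries with olfactory markers lay at 19.5 to 37.3 and the other 3 cortex-marker libraries at 38.6 to 49.7. Mbp per Cnp was 11.03 and 10.8 in TG and 11.4 and 12.8 in WT hindbrain-marker libraries and 5.75 to 7.81 in the other 11, the cerebellum-marker library included at 6.81. That library was just below the hindbrain-marker ones in Mog per Sox10, at 1.07 against 1.35 and 1.10 in TG and 1.16 and 1.35 in WT hindbrain-marker libraries. Mog per Mag, a ratio of 2 sheath proteins, stayed between 0.339 and 0.461 in all 15 libraries. Within the hindbrain-marker libraries, TG and WT overlapped for Mbp per Sox10 and Mog per Sox10, and both TG were below both WT libraries for Mbp per Cnp.

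**Figure D3:**
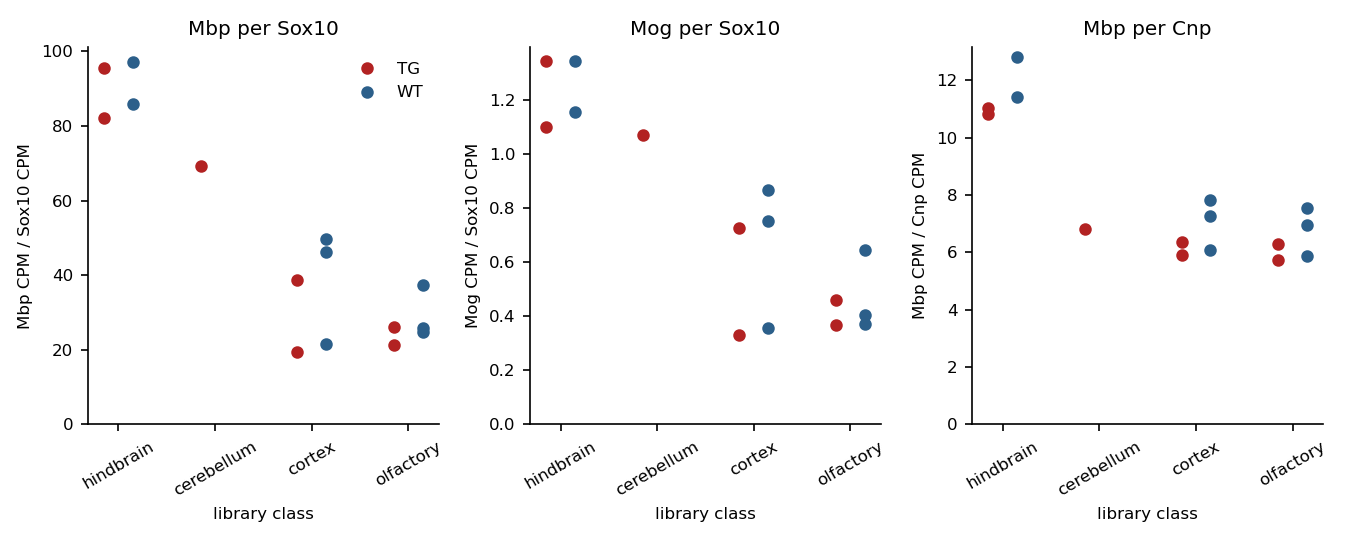
Ratios of CPM of Mbp to Sox10, Mog to Sox10 and Mbp to Cnp (vertical axes, from 0) in each library, by library class, TG left of WT. Mbp per Sox10 and Mbp per Cnp are highest in the 4 hindbrain-marker libraries, and the single cerebellum-marker TG library is next for both ratios to Sox10 but not for Mbp per Cnp.

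Genotype was tested first over all 15 libraries with sex as a covariate. None of the 38 genes passed (edgeR quasi-likelihood test with Benjamini-Hochberg adjustment over 17151 genes, threshold 0.05), against 0.111% of the genes tested. No gene of the 38 had an unadjusted p under 0.05, against 1.83% of all genes, and DESeq2 called 0 of the 38, against 0.233% of all genes. The log2 fold change was negative, a lower value in TG, for 36 of the 38 genes, against 50.2% of all genes, with a median of -0.35 against -0.00. The 38 genes largely rose and fell together from library to library. Counts of lower or higher genes, here and below, are therefore not counts of separate observations, and the share of all genes does not allow for this. The 4 genes with the smallest p, none of which passed, were Car2 (-0.40 ± 0.37, log2 fold change ± SE), Fa2h (-0.69 ± 0.71), Tmem63a (-0.63 ± 0.65) and Ndrg1 (-0.45 ± 0.49). The biological coefficient of variation in this fit, which has no term for region content, was 43.1%. Without the sex covariate 26 genes were lower, with a median of -0.05. The direction rested on single libraries. Without WT male 3, a hindbrain-marker library, 11 genes were lower and 27 higher with a median of 0.09, and without WT female 3, another of that class, 21 were lower with a median of -0.02. The median was -0.54 without WT female 1, -0.56 without WT female 4 and -0.59 without TG female 1, against -0.21, -0.18 and -0.24 without TG males 1, 3 and 4 in that order.

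With library class in the model, the coefficient of variation was 22.1%, and all 38 genes had a lower value in TG, against 47.7% of all genes. The median log2 fold change was -0.28, against 0.01 over all genes, and the 38 values ran from -0.59 to -0.00. Among libraries of the same class and genotype, the mean log2 level of the 38 genes had a pooled SD of 0.36, which is larger than this median. None of the 38 passed (edgeR, 0.251% of the genes tested passed). An unadjusted p under 0.05 was seen for 8 of the 38, against 4.88% of all genes, and DESeq2 called 0, against 0.583% of all genes. The smallest p-values belonged to Tmem63a (-0.53 ± 0.17), Trf (-0.58 ± 0.20), Car2 (-0.31 ± 0.11) and Cmtm5 (-0.32 ± 0.12), with edgeR adjusted p of 0.694, 0.759, 0.761 and 0.863 in that order. With the olfactory list added to the classes, the coefficient of variation was 14.2%, and 34 of the 38 genes were lower, against 49.6% of all genes, with a median of -0.24. Of the 38, 9 had an unadjusted p under 0.05, against 8.4% of all genes. Again none passed, against 0.496% of all genes, the smallest edgeR adjusted p being 0.268 for Tmem63a. With the first classes, leaving out WT female 2 gave a median of -0.17 and 30 lower genes. The number of genes with an unadjusted p under 0.05 was 17 without WT male 2, 15 without WT female 4, 5 without WT female 2 or TG male 4, and 4 without WT male 3. Tmem63a had 71.6 and 64.0 CPM in TG and 94.4 and 89.8 CPM in WT hindbrain-marker libraries, 26.0 CPM in the cerebellum-marker TG library, 10.7 and 11.2 CPM in TG and 9.81, 20.3 and 26.9 CPM in WT cortex-marker libraries, and 14.9 and 9.99 CPM in TG and 16.8, 17.3 and 13.8 CPM in WT olfactory-marker libraries. Its TG libraries were below the WT ones in the hindbrain-marker class and overlapped them in the other classes with both genotypes.

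In the hindbrain-marker libraries, where the genes were most abundant, 26 of the 38 were lower in both TG libraries than in both WT libraries, against 20.0% of the genes tested, and 36 had the lower mean in TG, against 50.5%. The fitted median was -0.32 on the log2 scale, against -0.00 over all genes. No gene of the 38 passed (edgeR contrast within the class, 0.0117% of the genes tested passed), and 1, Car2, had an unadjusted p under 0.05, against 2.32% of all genes. Negative values were seen in 36 of the 38 and in 50.6% of all genes. The median was -0.19 without the sex covariate and -0.49 without WT female 3, and 6 genes had an unadjusted p under 0.05 without WT male 2. With the olfactory list added to the classes, 36 genes were again negative, against 50.6% of all genes, with a median of -0.31, and 11 had an unadjusted p under 0.05, against 5.81% of all genes. None passed there, against 0.07% of all genes, the smallest edgeR adjusted p being 0.168 for Car2. A fit to these 4 libraries alone, without sex, gave 19 genes with an unadjusted p under 0.05, against 7.72% of all genes, and none passed, against 0.0643%, with a smallest edgeR adjusted p of 0.101. Car2 had 203 and 227 CPM in TG and 351 and 325 CPM in WT hindbrain-marker libraries. The groups did not overlap. Its log2 fold change was -0.75 ± 0.16 with an edgeR adjusted p of 1, while DESeq2 gave -0.74 with an adjusted p of 0.0228, the only call of a gene among the 38 under any test or setting run. DESeq2 called 0.0875% of all genes in this contrast. Next by p were Ndrg1 at -0.60 ± 0.28, Aspa at -0.68 ± 0.33 and Plekhb1 at -0.46 ± 0.24, none of which passed. Ndrg1 had 260.4 and 216 CPM in TG and 332 and 341 CPM in WT, Aspa had 53.4 and 46.1 CPM in TG and 66.7 and 69.9 CPM in WT, and Plekhb1 had 926 and 826 CPM in TG and 1079.6 and 1151 CPM in WT. In each of the 3 the TG and WT libraries did not overlap.

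Lower values in TG hindbrain-marker libraries were found in every role group, but not evenly. Without overlap they covered all 3 less studied genes, all 6 receptors, channels and junction proteins, 8 of the 9 enzymes, 5 of the 7 cytoplasmic genes, 3 of the 10 myelin membrane proteins and 1 of the 3 transcription factors. Mbp, Mag and Cnp were among those that overlapped. Mbp had 12037 and 10598 CPM in TG and 11960.0 and 13230.5 CPM in WT hindbrain-marker libraries, Mag 466 and 392 CPM in TG and 454 and 477 CPM in WT, and Cnp 1092 and 981 CPM in TG and 1047 and 1033 CPM in WT. In all 3, TG female 1 lay within or above the WT values and TG female 4 below them. Myrf was almost level at 227 and 224 CPM in TG and 231 and 226 CPM in WT. Opalin, at chr19:41061959-41077113, was the 1 gene higher in both TG libraries, with 32.1 and 22.5 CPM in TG and 20.1 and 15.8 CPM in WT, a pattern that 18.7% of the genes tested showed, with a log2 fold change of 0.58 ± 0.70 that did not pass (edgeR adjusted p of 1). Relative to the mean of all 38 genes, 13 genes were lower in both TG than in both WT libraries, against 2.61% of the genes tested, and 10 were higher, against 55.5%. The mean of the 38 was itself lower in TG, which shifts every other gene's ratio upward. These 2 shares of all genes follow from that shift and are no background for the 38. Car2 was among the lower ones, with Ermn, Ndrg1, Ugt8a, Fa2h, Aspa and Tmem63a, and Opalin, Mag, Cnp, Myrf and Nkx6-2 were among the higher ones. These 4 libraries also differed in other ways. Both TG libraries are from females, and 1 WT library is from a male. The astrocyte gene Gfap had 2095 and 1029 CPM in TG and 1180 and 2043 CPM in WT, so that the genotypes overlapped. The 10 hindbrain genes summed to 474 and 492 CPM in TG and 532 and 500.3 CPM in WT, so both TG were below both WT libraries. The neurofilament genes also summed lower in both TG (4415 and 4344 CPM) than in both WT libraries (4525 and 4906 CPM). Of the single genes tested, 20.0% were lower in this way. The sums of the astrocyte genes and of the pan-neuronal genes overlapped between the genotypes. The part of region content in the genotype values was not tested.

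**Figure D4:**
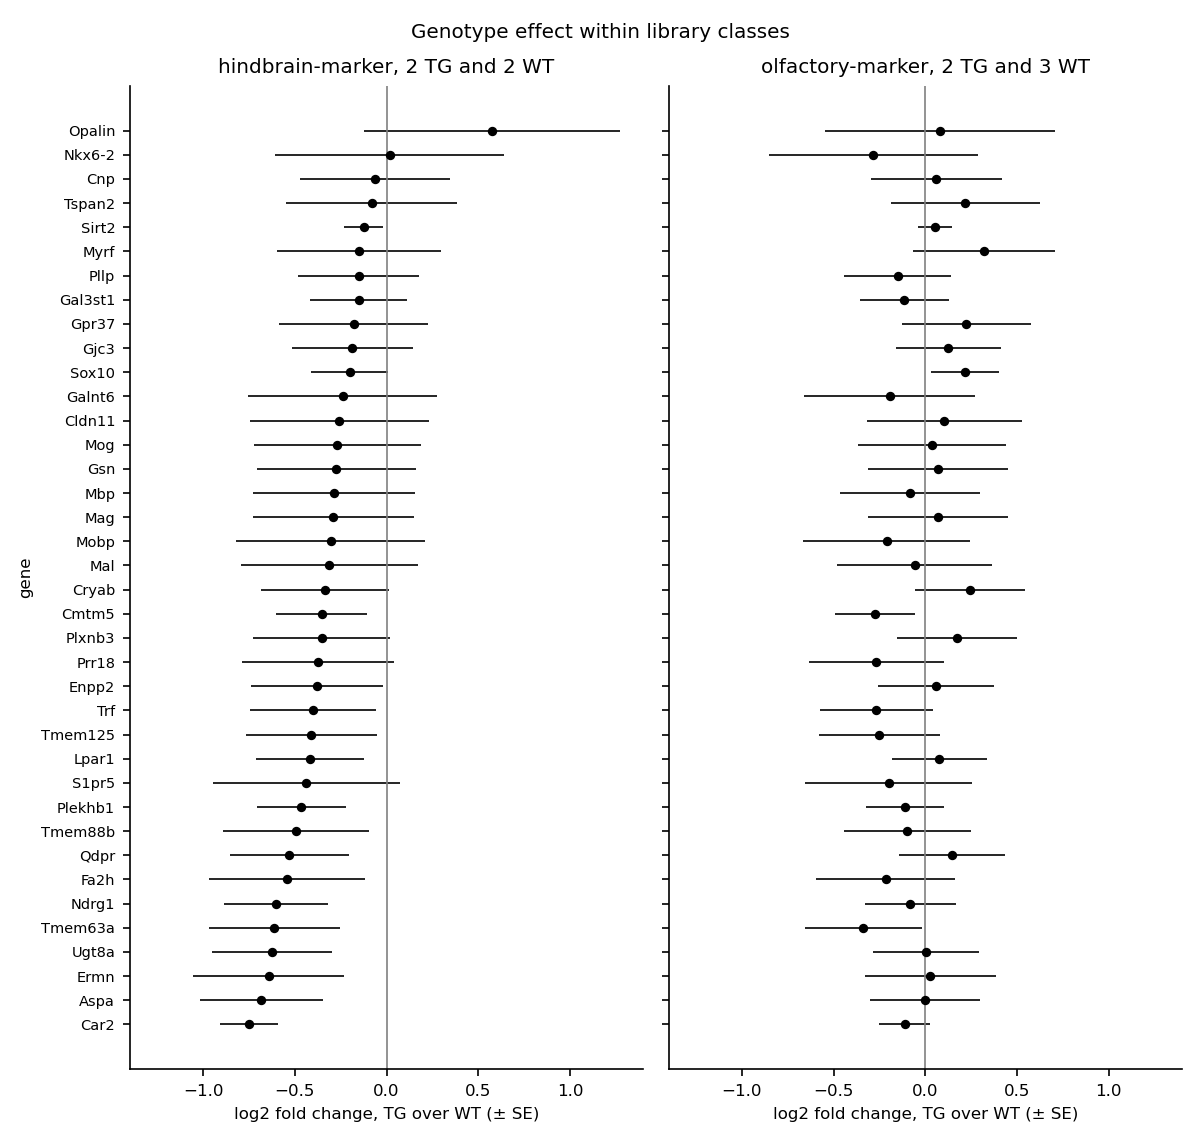
Log2 fold change of TG over WT (horizontal axis, points, with bars of 1 SE) for each of the 38 genes, within the hindbrain-marker libraries (left, 2 TG and 2 WT) and the olfactory-marker libraries (right, 2 TG and 3 WT), genes in the order of the left panel. On the left 36 points lie below 0, from -0.75 for Car2 to 0.58 for Opalin, and on the right 19 lie on each side of 0.

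In the olfactory-marker libraries, values lay on both sides of 0. Of the 38 genes, 19 had a lower and 19 a higher fitted value in TG, where 49.3% of all genes were lower, with a median of 0.00. None passed (edgeR, 0.0117% of the genes tested passed) or had an unadjusted p under 0.05, against 2.14% of all genes, and DESeq2 called 0, against 0.134%. Cmtm5 was the 1 gene lower in both TG libraries than in all 3 WT libraries, against 8.26% of the genes tested, and none was higher in both, against 8.27%. Cmtm5 had 32.2 and 32.9 CPM in TG and 35.7, 44.1 and 38.8 CPM in WT, with a log2 fold change of -0.28 ± 0.22. Sox10 (0.22 ± 0.18), Tmem63a (-0.34 ± 0.32) and Trf (-0.27 ± 0.31) followed by p and did not pass. The split turned with single libraries. Without WT male 1, 6 genes were lower and 32 higher with a median of 0.25, and without TG male 1, 12 were lower with a median of 0.06. Without WT female 4, 27 were lower with a median of -0.15, and without TG female 2, 26 were lower with a median of -0.11. The sign for Trf turned, to 0.10, without WT male 1. With the olfactory list added to the classes, 3 TG and 4 WT libraries were compared, 17 genes were lower and 21 higher in TG, where 48.3% of all genes were lower. None of the 38 passed, against 0.245% of all genes. None was below in all TG libraries, against 2.95% of all genes, and none above, against 3.83%. Cryab (0.32 ± 0.12) and Sox10 (0.24 ± 0.10) had an unadjusted p under 0.05 there, against 7.75% of all genes, with higher values in TG (edgeR adjusted p of 0.578 and 0.63).

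In the cortex-marker libraries, 36 of the 38 genes had a lower mean in TG, against 46.1% of the genes tested, and 3, Pllp, Trf and Car2, were lower in both TG than in all 3 WT libraries, against 6.07%. None was higher in both, against 6.79%. Trf had 13.01 and 13.5 CPM in TG and 17.7, 30.9 and 43.1 CPM in WT. Pllp had 17.2 and 18.6 CPM in TG and 19.0, 31.8 and 36.8 CPM in WT. This class mixed libraries with and without olfactory markers. Between the 3 libraries without them, TG male 4 was below both WT male 4 and WT female 2 for 37 of the 38 genes, against 37.3% of the genes tested, with Mbp at 1386 CPM in TG and 2341 and 2918 CPM in WT. Enpp2 was the exception, higher in TG as were 35.4% of the genes tested, at 117 CPM in TG and 86.8 and 104 CPM in WT. With 1 TG library, genotype cannot be told apart from that library. The summed level of 10 pan-neuronal genes, none of them at 0 in all libraries, was 12861 CPM in it and 10551 and 11137 CPM in the 2 WT libraries, and the part of this in the result was not tested.

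Whether the genotype effect differed between hindbrain-marker and olfactory-marker libraries was tested as a difference of the 2 effects. None of the 38 genes passed, and with 0.0% no gene of the table did (edgeR), while DESeq2 called 3 genes of the table (0.0175%) and none of the 38. Of the 38, 36 had the more negative effect in the hindbrain-marker libraries, against 50.3% of all genes, with a median difference of -0.32. That median was -0.19 without the sex covariate. Leaving out 1 library gave -0.68 without WT male 1, -0.49 without WT female 3, -0.20 without WT female 2, -0.19 without WT female 4 and -0.14 without TG female 2. Car2 alone had an unadjusted p under 0.05, against 1.56% of all genes, with a difference of -0.64 ± 0.22 (edgeR adjusted p of 1). Qdpr (-0.68 ± 0.44), Aspa (-0.68 ± 0.46) and Sox10 (-0.42 ± 0.29) followed and did not pass. With the olfactory list added to the classes, 10 of the 38 had an unadjusted p under 0.05, against 5.46% of all genes, and none passed, against 0.0117%.

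**Figure D5:**
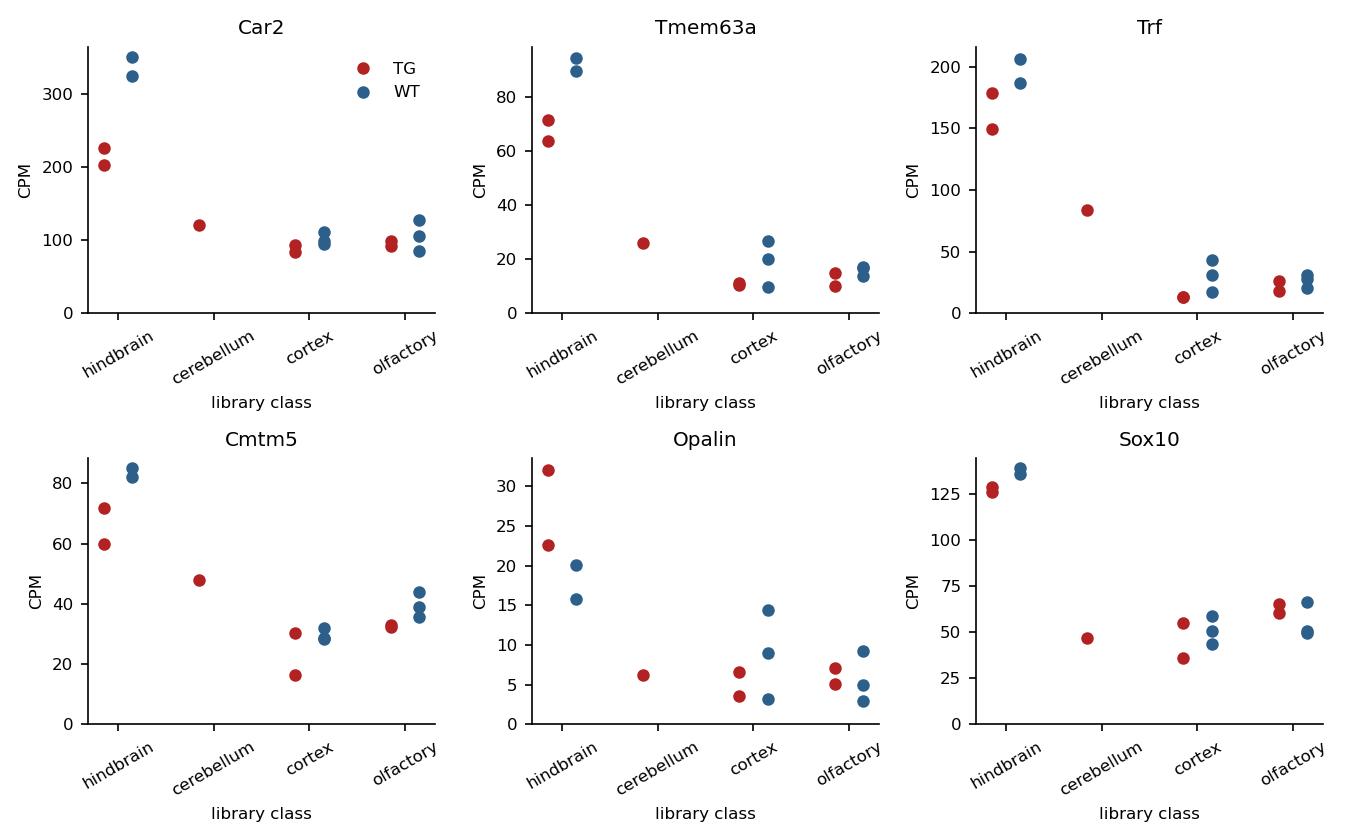
CPM of Car2, Tmem63a, Trf, Cmtm5, Opalin and Sox10 (vertical axes, from 0) in each of the 15 libraries by library class, 1 point per library, TG left of WT. In the hindbrain-marker class the 2 TG points lie below the 2 WT points for 5 of the genes and above them for Opalin.

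Between the sexes, with genotype and library class in the model, all 38 genes had a higher fitted value in females than in males, while 49.6% of all genes had the lower value in females, with a median log2 fold change of 0.27. Without WT female 2 the median was 0.03, with 23 genes higher and 15 lower in females. None of the 38 passed (edgeR, 0.0408% of the genes tested passed) or had an unadjusted p under 0.05, against 2.66% of all genes, and DESeq2 called 0, against 0.0816%. Trf (0.39 ± 0.20), Fa2h (0.45 ± 0.24), Gal3st1 (0.27 ± 0.15) and Ugt8a (0.33 ± 0.18) had the smallest p. With the olfactory list added to the classes all 38 were again higher in females, 4 of them with an unadjusted p under 0.05, against 5.52% of all genes, and none passed, against 0.07%. The genotype-by-sex interaction passed for none of the 38 and for no gene of the table (0.0%) by edgeR. No gene of the 38 had an unadjusted p under 0.05, against 3.75% of all genes, and DESeq2 called 4 genes of the table (0.0233%) and none of the 38. The interaction was positive, a less negative genotype effect in females, for 26 of the 38, with a median of 0.25, while 53.7% of all genes were negative. That median was 0.59 without WT male 2, where 32 genes were positive and 13 had an unadjusted p under 0.05, against 7.83% of all genes. It was 0.39 without TG male 1, 0.16 without WT male 1, 0.12 without WT female 4, 0.05 without WT male 4 and 0.04 without TG female 2. With the olfactory list added to the classes, 26 were again positive with a median of 0.29, while 52.4% of all genes were negative, and none had an unadjusted p under 0.05, against 12.5% of all genes, or passed, as no gene of the table did (0.0%). In the fit with the first classes, Car2 (-0.32 ± 0.22), Nkx6-2 (0.97 ± 0.65), Trf (0.57 ± 0.40) and Pllp (0.51 ± 0.36) had the smallest p, and of these Car2 had the negative sign.

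Further genes of the lineage were read in the fit with library class, where 0.251% of all genes tested passed and 47.7% were negative. Of 30 other genes of mature oligodendrocytes, 1 fell in TG and none rose. That gene was Klk6, a secreted protease, with a log2 fold change of -1.08 ± 0.18 and an edgeR adjusted p of 0.0375. Anln, which encodes the cytoskeletal scaffold anillin, had -1.02 ± 0.19 with an adjusted p of 0.0748 in edgeR. With the olfactory list added to the classes, where 0.496% of all genes passed, Anln passed at -0.95 (edgeR adjusted p of 0.00622). In the fit with the first classes, 23 of the 30 were negative, with a median of -0.27. Of 17 genes of myelin lipid synthesis, none passed and 14 were negative with a median of -0.07, Arsa, the arylsulfatase that degrades sulfatide, having the smallest p at -0.25 ± 0.08. Of 16 genes of oligodendrocyte precursors, none passed and 10 were negative with a median of -0.03. Among them Enpp6 had the smallest p, at -0.80 ± 0.19 with an edgeR adjusted p of 0.287. Of 11 further transcription factors of the lineage, none passed and 6 were negative with a median of -0.08. In the hindbrain-marker libraries the 16 precursor genes summed to 1509 and 1549 CPM in TG and 1416 and 1356 CPM in WT. Both TG sums were thus above both WT sums, a pattern that 18.7% of the single genes tested showed in this class. The sums were not tested. Among these genes the precursor receptor gene Pdgfra had 66.5 and 54.1 CPM in TG and 59.2 and 57.9 CPM in WT, which overlapped.

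Markers of other cells were read in the same fit, and none passed, against 0.251% of all genes tested. The median log2 fold change was 0.01 for 10 astrocyte genes, 0.03 for 10 microglia genes, 0.05 for 9 endothelial genes, -0.06 for 10 pan-neuronal genes, 0.01 for 5 neurofilament genes, 0.08 for 11 genes of peripheral myelin and olfactory ensheathing glia, -0.22 for 5 ependyma genes and -0.40 for 9 choroid plexus genes. The region lists had medians of -0.02 for excitatory cortex, -0.01 for striatum, 0.10 for cerebellum, -0.04 for hindbrain and 0.03 for hypothalamus. The 9 olfactory bulb genes all had positive values (median 0.43), and their median was 0.05 once the olfactory list entered the classes. The part of that imbalance in the median of the 38 genes, which was -0.28 with the first classes and -0.24 with the second, was not tested.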

How the data were processed

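The authors deposited 1 table of whole-number counts per NCBI gene ID. STAR 2.7.5b, featureCounts, Subread and GRCm38 are listed in the submitters' processing notes. The extract protocol in the labels names a stranded kit that depletes ribosomal RNA. Counting settings (strand, read pairs, multiple matches) were not given in the sources used here, so reads of overlapping genes may be shared. Symbols and positions came from RefSeq on GRCm38.p6 for 25275 of 27179 IDs, and IDs without one held 0.862% of counts. Exon lengths are GENCODE exon unions.

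Tests used edgeR 4.0.16 and R 4.3.3 (TMM, filterByExpr over the 4 genotype-by-sex groups, robust quasi-likelihood F test, Benjamini-Hochberg adjustment over 17151 genes, threshold 0.05). DESeq2 1.42.0 was an alternative. CPM uses TMM-scaled totals, and log2 levels add 0.5 CPM. SE is the absolute log2 fold change divided by the square root of F. Classes came from Ward clustering of the libraries on the mean log2 CPM of 5 region lists, taken at 4 classes. Within-class contrasts were taken from class-by-genotype means with sex, fitted to all 15 libraries. Tests were checked on simulated data. Libraries of 1 group differed from each other by more than sampling noise (chi-square per gene of at least 6.03).

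The 38 genes, the role groups and the 18 further lists were chosen with earlier results of these data known. Of 209 listed symbols, 207 were found. Genes given in full were the 4 with the smallest p in each test, the 2 most abundant of each role group, the 3 with the largest and the 3 with the smallest difference between classes, and the 3 with the steadiest and the 3 with the least steady ratios. Opalin, and the genes listed as overlapping or not, were named after their values were seen. Alternatives were other size factors, filters, dispersion and scaling, no sex term, a replicate block, other library sets and each library left out.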

Additional observations from a re-analysis of the deposited data

Results flagged for a closer look

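Of 87 groups of 4 or 5 libraries, 4 (4.6%) held 1 library far from the rest. Log2 ratios to the mean of the 38 genes were read within library classes, for the genes given in full. The mean itself was read within library classes and within genotype-by-sex groups. All 4 were ratios within library classes. Chance flags about 1 in 20 groups. Enpp2 stood at 1.76 in TG male 4, against 0.709 to 1.00 in the other cortex-marker libraries. Ttr, a choroid plexus gene, was at 0.172 CPM in that library. Gal3st1 stood at -1.84 in WT male 2, against -2.13 to -2.06 in the other cortex-marker libraries. Myrf stood at -0.195 in WT male 2, against 0.143 to 0.268 in the others of that class. WT male 2 is 1 of the 2 libraries of that class with olfactory markers. Pllp stood at -0.453 in WT male 1, against -0.841 to -0.734 in the other olfactory-marker libraries.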

How the results depend on the processing

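The number of the 38 genes called stayed at 0 in every test and alternative run but 1. The exception was the hindbrain-marker contrast, where DESeq2 called 1 gene, Car2 (log2 fold change -0.74, DESeq2 adjusted p of 0.0228), and edgeR called 0; the cause was not tested. The number of lower genes and the medians moved more, and for tests other than that with library class their alternatives were added after seeing the data. Leaving out each library in turn gave 30 to 38 lower genes and a median of -0.34 to -0.17 on the log2 scale with library class, 11 to 37 and -0.59 to 0.0860 over all libraries, 34 to 37 and -0.49 to -0.25 in the hindbrain-marker libraries, and 6 to 27 and -0.15 to 0.25 in the olfactory-marker libraries. It gave 27 to 37 genes with the more negative effect in hindbrain-marker libraries (median -0.68 to -0.14), 23 to 38 higher in females (0.0264 to 0.34) and 21 to 32 with a positive interaction (0.0383 to 0.59). The log2 fold change of Trf in the olfactory-marker libraries ran from -0.47 to 0.0977 and turned without WT male 1. Over all genes tested, edgeR called 43 with library class, against 100 with DESeq2, 85 with the olfactory list added and 23 with the replicate block, and 19 without class, against 40 with DESeq2. All 38 genes passed the filter on low counts.

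Replicate numbers are shared between groups in the labels. Of 21 same-numbered pairs of libraries, 7 had a correlation of their deviations over 0.1, with a range of -0.654 to 0.925, and 3 of 15 libraries correlated best with their own number, so the numbers were not taken to pair libraries. With the replicate block, 0 of the 38 genes were called in each test, 36 were lower in TG with library class (median -0.28), 33 were lower in the hindbrain-marker libraries (median -0.71), 11 were lower in the olfactory-marker libraries (median 0.149), and the median difference between these classes was -0.80. The block turned the sign of Aspa in the hindbrain-marker libraries (0.122) and of the Sox10 difference between classes (0.0160), with neither past the threshold.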
